A study of Mus musculus with 6 samples.

Results

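The nuclear-encoded subunits of oxidative phosphorylation (OXPHOS) were examined in sorted retinal vascular endothelial cells (VECs) with and without Bmal1, the transcription factor at the centre of the circadian clock. The members were chosen by name and biotype. They are the protein-coding rows of the table whose symbol starts with Ndufa, Ndufb, Ndufc, Ndufs, Ndufv, Uqcr, Atp5, Cox4, Cox5, Cox6, Cox7 or Cox8, or is Sdha, Sdhb, Sdhc or Sdhd, without complex I assembly factors (Ndufaf) and rows named as pseudogenes. This gave 86 of the 55487 genes listed, with 38 placed by name in complex I, 4 in complex II, 8 in complex III, 18 in complex IV and 18 in complex V. Of these, 82 had at least 10 reads in at least 3 libraries and were tested.

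RNA was sequenced from GFP and tdTomato double-positive cells of P7.5 retinas from C57BL/6J pups. The 3 control libraries were tdTomato FL/+;Pdgf-icreER, and the 3 Bmal1;CKO libraries carried Bmal1 FL/FL in addition. Both genotypes therefore shared the Cre driver, which also expresses GFP, and the tdTomato reporter, and pups of both were given tamoxifen daily between P0.5 and P2.5, so that only cells in which Cre had recombined the reporter were sorted. The comparison asked which transcripts depended on Bmal1 in VECs, and each library is called here by its number in the table, where controls are numbered 1 to 3 and Bmal1;CKO libraries 4 to 6. The labels number the libraries of the series the other way round, so the genotype was taken from the name in the table and not from the number. No label ties a library to a single animal, and p-values measure the spread between these libraries only.

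OXPHOS is the final stage of respiration, in the inner membrane of the mitochondrion. Complex I takes electrons from NADH and complex II from succinate, complex III passes them from ubiquinol to cytochrome c, and complex IV passes them to oxygen. Complexes I, III and IV pump protons, and complex V, the ATP synthase, uses the proton gradient to make ATP. Most subunits are encoded in the nucleus, made in the cytosol and imported, while a small core is encoded in mitochondrial DNA. Endothelial cells are known for taking much of their ATP from glycolysis.

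The libraries held 71145068 to 104017800 reads on genes. Values are normalized counts (reads over the library's DESeq2 size factor), and log2 fold changes are on the scale of log2(normalized count + 1), Bmal1;CKO minus control. Bmal1 itself (Arntl in the table) had 1700, 3489 and 2928 normalized counts in control and 1779, 2747 and 2415 in Bmal1;CKO, so that its count over the whole gene overlapped between the groups (log2 fold change of -0.19, SE 0.36; limma-trend adjusted p = 0.924) and gave no check of the labels. A count over the whole gene does not resolve a deleted part of it. By droplet digital PCR, the authors report a significant loss of Bmal1 transcript in sorted mutant cells. The 14 endothelial markers summed to 125431 to 423367 normalized counts per library and were all detected. The 9 microglial markers summed to 1386180 to 4103350 and the 12 rod markers to 669225 to 1064100, so the sorted libraries also held much RNA of other retinal cells. In such bulk libraries, fewer cells of a type and less RNA per cell cannot be told apart.

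Many OXPHOS subunits have intronless copies elsewhere in the genome, and this bears on how their counts read. A transcript of another locus was called a near-identical copy when at least 150 bases, covering at least 50% of the shorter sequence, matched at 95% identity or more. Such copies were found for 24 of the 86 members at 47 loci, of which 45 are annotated as pseudogenes. For each of these 24 members, the copy with the most counts has a single exon, and its sequence runs through an exon junction of the member without a break. Over 24 bases on each side of the best matching junction, 19 of the 24 copies were identical to the member, 4 differed at 1 base and 1 differed at 2 bases. A read across such a junction matches the genome without a gap at the copy and only across an intron at the gene. The pairs below are shown because they include the member with the largest fold change (Ndufs5), a member whose fold change turned in sign when copies were added (Atp5md), a member of the c ring of ATP synthase (Atp5g1), and the pair with 2 differences (Ndufb3). In each member the 8 capitals are the 4 coding bases on each side of the junction, and in each copy capitals mark bases that differ from the member. The sequences are GENCODE M21 transcripts of GRCm38.
Ndufs5: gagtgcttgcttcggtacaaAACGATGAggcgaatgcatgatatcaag
Ndufs5-ps: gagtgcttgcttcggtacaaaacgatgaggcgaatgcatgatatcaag
Atp5md: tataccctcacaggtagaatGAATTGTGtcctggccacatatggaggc
Gm14539: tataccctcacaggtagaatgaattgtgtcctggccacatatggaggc
Atp5g1: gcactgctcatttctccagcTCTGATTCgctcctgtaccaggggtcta
Gm10039: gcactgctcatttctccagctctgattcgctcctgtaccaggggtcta
Ndufb3: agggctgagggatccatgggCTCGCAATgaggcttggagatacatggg
Gm45930: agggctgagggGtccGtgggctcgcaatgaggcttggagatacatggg

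Ndufs5 lies on the minus strand of chromosome 4, where the junction joins base 123715864 to base 123712926 over an intron of 2937 bases, and Ndufs5-ps carries the same bases at chr16:42955823-42955870 on the plus strand. The Atp5md junction joins 47086134 to 47086047 on chromosome 19 (minus strand), and Gm14539 is at chrX:20581204-20581251. The Atp5g1 junction joins 96074987 to 96074039 on chromosome 11 (minus strand), and Gm10039 is at chr11:100362064-100362111. The Ndufb3 junction joins 58591249 to 58595649 on chromosome 1 (plus strand), and Gm45930 is at chr12:85187647-85187694. The copy took 3.33% of the counts of member and copy together for Ndufb3, against 98.5% for Ndufs5, 99.1% for Atp5md (3 copies) and 98.6% for Atp5g1. Copies held over 50% of the summed counts for 20 of the 24 members. How reads were divided between a gene and its copies was not tested, and the values of these 24 members are uncertain in level.

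No subunit passed the test for a genotype difference. At FDR < 0.05, 0 of the 82 members were called by limma-trend, as were 0 of all 20459 genes (0%), and 1 member (Ndufs5) had an unadjusted p under 0.05, where 1007 of all genes (4.92%) did. In the direction of lower levels in Bmal1;CKO the share of all genes was 1.75%. The fold changes nevertheless lay mostly below 0. They were negative for 71 of the 82 members, where 43.4% of all genes were, with a median of -0.34 against 0.11 over all genes. In the edgeR fit to reads, run with TMM scaling, the median of all genes was -0.03 and that of the members -0.42. That test gave 4 members an unadjusted p under 0.05 (3.8% of all genes), namely Ndufs5, Uqcrb, Ndufa4 and Atp5e, and called 0 genes at FDR < 0.05. DESeq2 gave 5 (5.92%), the same 4 and Ndufb3, and 5 with a normal prior (5.1%), while it called 0 members but 0.327% of all genes at FDR < 0.05, and 0.166% with the prior. With edgeR and the size factors of DESeq2 the number was 3 (3.87%), and with limma-voom 0 (4.87%). The member median was -0.16 without control library 1, -0.22 without control library 2, -0.67 without control library 3 and -0.16 without Bmal1;CKO library 6. Without control library 3, 30 members had an unadjusted p under 0.05, all lower in Bmal1;CKO, where 11.9% of all genes passed and 4.65% passed in that direction. Without control library 1 the number was 2 (8.65% of all genes), and 0.0293% of all genes but 0 members were called at FDR < 0.05.

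The control libraries differed more from each other than the genotypes did on average. Control libraries 1 and 2 both lay above the other 4 libraries for 49 of the 82 members (59.8%), where this held for 11.9% of all genes. Control library 3 lay below the other controls for 68 members (28.4% of all genes), and below all 3 Bmal1;CKO libraries for 40 members (27.5% of all genes). It was within the range of the Bmal1;CKO libraries for 33 members and above that range for 9. For the median member, the level in control library 1 was 2.41-fold and that in control library 2 was 2.06-fold the level in control library 3. The SD of log2 levels had a median of 0.71 in control and 0.33 in Bmal1;CKO, beside 0.76 and 0.42 over all genes. Genes with a read numbered 21598, 23889 and 26420 in control libraries 1, 2 and 3, and 22142, 27904 and 26793 in Bmal1;CKO. The authors report their control sample tdTom1 as an outlier in principal component analysis, with no technical issue found. That name was not matched to a library here.

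**Figure D1:**
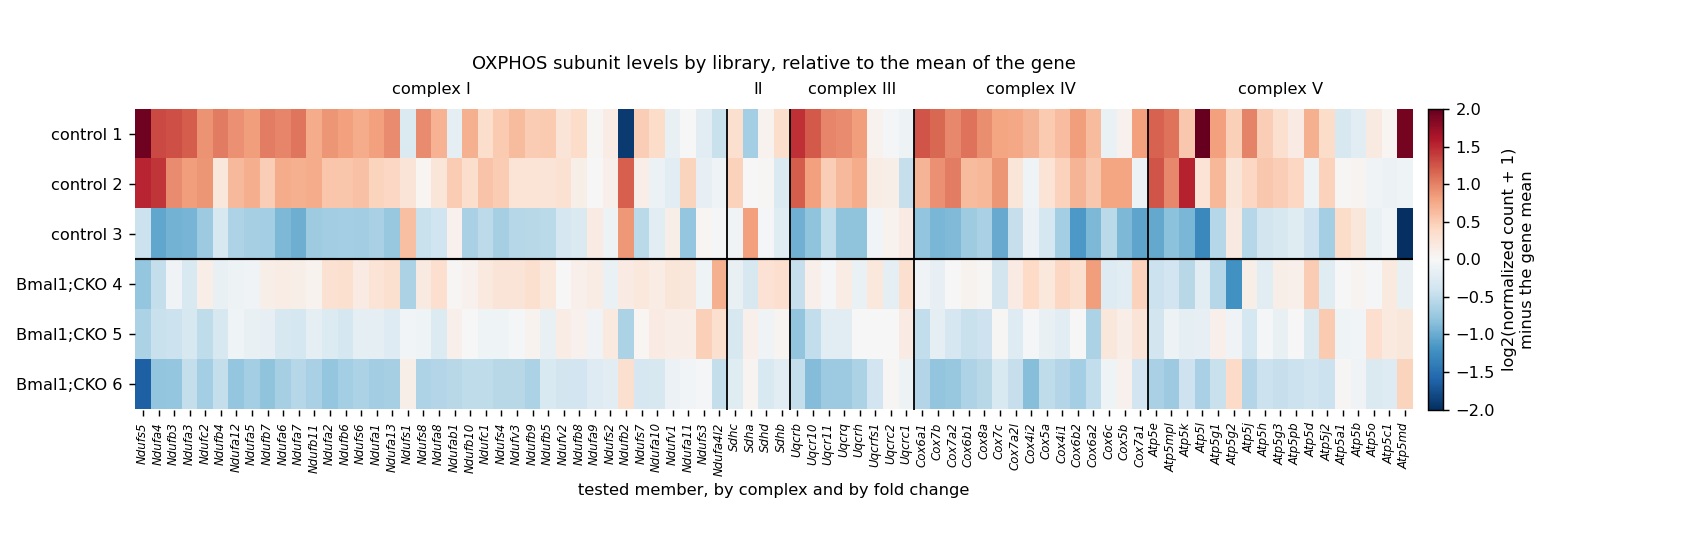
Each column is a tested member, ordered by complex and by fold change, and each row a library; colour gives log2(normalized count + 1) minus the mean of that gene over the 6 libraries, with the scale ending at 2 in each direction. Control libraries 1 and 2 are mostly red and control library 3 mostly blue, with medians over the members of 0.68, 0.45 and -0.57. Bmal1;CKO libraries 4 and 5 have medians between these (0.10 and -0.09), and Bmal1;CKO library 6 (-0.49) is close to control library 3.

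Summed over all 86 members, the level was 1378470, 1221790 and 840221 normalized counts in control (1146830 ± 276844, SD, n = 3) and 1096270, 907071 and 761466 in Bmal1;CKO (921601 ± 167872, SD, n = 3). The groups overlapped, with control library 3 between Bmal1;CKO libraries 5 and 6. The log2 ratio of the means was -0.32, where the pooled SD of log2 sums was 0.32. It was -0.16 without control library 1, -0.50 without control library 3 and -0.20 without Bmal1;CKO library 6. As a share of the reads on genes, the members took 1.28%, 1.64% and 1.13% in control and 1.10%, 1.06% and 0.989% in Bmal1;CKO. On that scale every control library lay above every Bmal1;CKO library with control library 3 and Bmal1;CKO library 4 lying closest.

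The complexes differed in how far their libraries spread. Complex IV summed to 290973, 244860 and 102888 normalized counts in control and 186645, 133670 and 111700 in Bmal1;CKO, a log2 ratio of -0.56 with control library 3 lowest of all 6. Complex I had the same order of controls, at 486424, 399777 and 228669, beside 350854, 293303 and 219762 in Bmal1;CKO. Complex III, at 176200, 150154 and 100421 against 137654, 114949 and 89207, was spread like complex I. Complexes II and V were less spread. Complex II summed to 72865, 73839 and 82417 in control and 78070, 70441 and 63260 in Bmal1;CKO, and complex V to 352009, 353160 and 325826 in control and 343043, 294709 and 277538 in Bmal1;CKO. All 5 sums overlapped between the genotypes. Over single members, the median log2 fold changes without control library 3 were -0.66 for complex I, -0.025 for complex II, -1.06 for complex III, -0.69 for complex IV and -0.66 for complex V. Without control library 1 they were -0.14, -0.23, -0.21, -0.11 and -0.20.

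**Figure D2:**
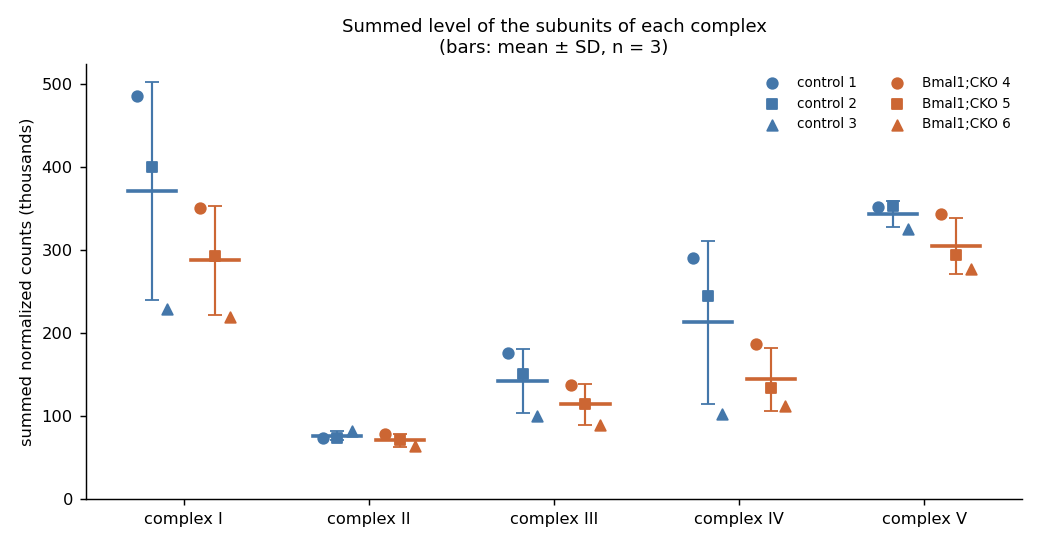
Points give the summed normalized counts, divided by 1000, of the subunits of each complex in each library, with horizontal lines for group means and error bars for the SD (n = 3). Complexes I and IV are widely spread in control, from 102888 to 290973 normalized counts for complex IV, while complexes II and V vary little.

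In complex I, fold changes were below 0 for 34 of 38 members, with a median of -0.35. Its 7 core subunits, which carry the flavin and iron-sulphur centres and the quinone site, had a median of -0.10, and its 31 accessory subunits a median of -0.42. Without control library 1 these were 0.026 and -0.17, and without control library 3 they were -0.18 and -0.87. Ndufs5, an accessory subunit of the intermembrane face, was the member with the largest fold change. It had 1453, 1082 and 281 normalized counts in control and 221, 242 and 121 in Bmal1;CKO, so that the groups did not overlap, with control library 3 only slightly above Bmal1;CKO library 5. Its log2 fold change was -2.03 (SE 0.73; limma-trend, unadjusted p = 0.0253, adjusted p = 0.883). The unadjusted p was 0.0831 without control library 2 and 0.0809 without Bmal1;CKO library 6. Ndufs5-ps, the copy shown above, had 62273, 51740 and 20030 normalized counts in control and 36512, 27246 and 19258 in Bmal1;CKO. With that copy added, the log2 fold change of Ndufs5 was -0.60 (SE 0.47; limma-trend, unadjusted p = 0.239).

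Ndufs1, which holds iron-sulphur centres of complex I and is among its longest transcripts, ran in another order, at 2490, 3637 and 4618 normalized counts in control and 1949, 2925 and 3304 in Bmal1;CKO. Ndufv1, the subunit that binds NADH, had 18184, 17244 and 22094 in control and 23854, 22315 and 18767 in Bmal1;CKO (log2 fold change of 0.18, SE 0.23). In both of these core subunits control library 3 was the highest of the controls. Ndufb2, an accessory subunit, was the exception on the other side, with 122 normalized counts in control library 1, against 1057 and 842 in the other controls and 522, 300 and 579 in Bmal1;CKO. Ndufa2 was the complex I member of highest mean level per kilobase of exon over the 6 libraries, although Ndufa8 lay above it in control library 3 and Bmal1;CKO library 6. It had 50044, 40094 and 16782 normalized counts per kilobase in control and 33760, 22448 and 15927 in Bmal1;CKO. Its log2 fold change was -0.49 (SE 0.46). Levels per kilobase leave out the copies, and with counts of copies added the mean of Ndufs5 lay above that of Ndufa2.

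Ndufa4 and Ndufa4l2 are paralogues placed here in complex I by name, although the Ndufa4 protein is now counted with complex IV. Ndufa4l2 is best known as a gene induced in hypoxia. Ndufa4 had 13980, 15120 and 2743 normalized counts in control and 4044, 4136 and 3241 in Bmal1;CKO. Control libraries 1 and 2 were thus far above every other library, and control library 3 was the lowest of all. Without control library 3 its log2 fold change was -1.94, and without control library 2 it was -0.71. Ndufa4l2 had 2601, 3317 and 3490 in control and 5820, 4420 and 2531 in Bmal1;CKO. Of the 2 per kilobase, Ndufa4 made up 81.0%, 78.3% and 38.4% in control and 35.5%, 42.6% and 50.4% in Bmal1;CKO. Neither passed the test, with log2 fold changes of -1.14 (SE 0.62; limma-trend adjusted p = 0.883) and 0.37 (SE 0.35; limma-trend adjusted p = 0.883).

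The 4 members of complex II, succinate dehydrogenase, had a median fold change of -0.08. Sdhc, which helps to anchor the enzyme in the membrane and bind haem, was the other member whose groups did not overlap. It had 11724, 12925 and 8960 normalized counts in control and 8450, 7504 and 7916 in Bmal1;CKO (log2 fold change of -0.48, SE 0.24; limma-trend, unadjusted p = 0.0796, adjusted p = 0.883). No near-identical copy of Sdhc was found. Together with Ndufs5 this made 2 of 82 members in which Bmal1;CKO lay wholly below control, where 4.54% of all genes did, and 0 members in which it lay above, where 11.2% of all genes were separated in either direction. Sdha, the flavoprotein that oxidizes succinate, had 11043, 17845 and 31303 in control and 14138, 19038 and 18383 in Bmal1;CKO. Sdhb, its iron-sulphur partner, had a log2 fold change of 0.11 (SE 0.28). Sdhd, the other anchor and the complex II member of highest level per kilobase, had 27675, 26690 and 25618 normalized counts per kilobase in control and 32235, 25122 and 21309 in Bmal1;CKO.

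In complex III, 7 of 8 members had fold changes below 0, with a median of -0.52. Uqcrb, a small subunit near the ubiquinone site, had 2506, 2106 and 467 normalized counts in control and 655, 522 and 652 in Bmal1;CKO (log2 fold change of -1.15, SE 0.65; limma-trend adjusted p = 0.883). Uqcr10, another small subunit, had 54413, 41142 and 13363 normalized counts per kilobase in control and 25087, 16488 and 12808 in Bmal1;CKO. It had the highest mean level per kilobase of complex III over the 6 libraries, through control libraries 1 and 2. In the other 4 libraries the Rieske iron-sulphur protein Uqcrfs1 was higher, at 25358, 26894 and 23235 in control and 28186, 24428 and 18549 in Bmal1;CKO. With counts of copies added, the mean level of Uqcr11 per kilobase lay above that of Uqcr10. In Uqcrb and Uqcr10, control libraries 1 and 2 lay above all others and control library 3 among the Bmal1;CKO libraries or below them. Uqcrfs1 and the large core proteins did not share this order. Uqcrc1 had 28066, 21768 and 33731 normalized counts in control and 37530, 33641 and 28080 in Bmal1;CKO (log2 fold change of 0.26, SE 0.27), and Uqcrc2 had a log2 fold change of -0.10 (SE 0.23).

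In complex IV, cytochrome c oxidase, 13 of the 15 tested members had fold changes below 0, with a median of -0.32, and control library 3 lay below the other controls in all 15. Several of its subunits exist as ubiquitous and tissue-restricted isoforms, and the ubiquitous form led in every library. Cox4i1 made up 96.2% to 98.2% of the 2 COX4 genes per kilobase, Cox6a1 98.7% to 99.6% of COX6A and Cox6b1 97.6% to 98.7% of COX6B. Cox4i1 itself had 99557, 88862 and 40386 normalized counts in control and 86361, 55577 and 43293 in Bmal1;CKO. Cox6a1 had 35525, 23948 and 8645 against 14191, 10636 and 9908, and Cox6b1 had 24500, 17914 and 7094 against 12129, 8479 and 7571. In all 3, control library 3 was the lowest library and control library 1 the highest. Cox4i2, the form linked to lung and to low oxygen, was detected at 1400, 829 and 810 normalized counts in control and 1155, 866 and 487 in Bmal1;CKO. The muscle form Cox6a2 (151, 141 and 51 against 174, 62 and 68) and the testis form Cox6b2 (578, 518 and 146 against 406, 324 and 203) were low.

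Cox7a2 and Cox7a2l shared the COX7A class, with Cox7a2 at 48.6%, 59.0% and 38.3% per kilobase in control and 42.2%, 44.0% and 40.3% in Bmal1;CKO. Cox7a2 had 11385, 11882 and 3162 normalized counts in control and 5778, 4613 and 3433 in Bmal1;CKO, and Cox7a2l had 18786, 12916 and 7969 in control and 12339, 9159 and 7951 in Bmal1;CKO. Cox7a2l, which has a near-identical copy, is best known as a factor that joins complexes III and IV into supercomplexes. The muscle form Cox7a1 had 4 to 18 normalized counts per library. Cox7b, a subunit with copies at 2 loci, had 4616, 3923 and 1104 in control and 1864, 1834 and 1202 in Bmal1;CKO. Cox8a, the complex IV member of highest level per kilobase, had 84840, 70207 and 28391 normalized counts in control and 45004, 33242 and 30048 in Bmal1;CKO (log2 fold change of -0.64, SE 0.44; limma-trend adjusted p = 0.883). Its control values spanned the whole range of the Bmal1;CKO libraries. The muscle form Cox8b had 0, 8 and 6 reads in control and 0, 5 and 0 in Bmal1;CKO, Cox8c was listed at 0 reads in all 6 libraries, and Cox7b2, the testis form of Cox7b, had 1 read in control library 2 and 0 elsewhere. A count of 0 allows up to 3 reads, for counting error only. These 3 genes and a second Atp5o row with 0 reads were the 4 members not tested.

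In complex V, 14 of 17 tested members had fold changes below 0, with a median of -0.33. The 2 subunits of the catalytic core were highest in control library 3 and lowest in control library 1. Atp5b, the catalytic beta subunit and the complex V member of highest mean level per kilobase over the 6 libraries, though Atp5d lay above it in control library 1 and Bmal1;CKO library 4, had 109843, 130752 and 148080 normalized counts in control and 131358, 121972 and 120151 in Bmal1;CKO (log2 fold change of -0.05, SE 0.30). Atp5a1, its alpha partner, had 49094, 62775 and 79638 in control and 60963, 57865 and 62832 in Bmal1;CKO (log2 fold change of -0.05, SE 0.28). In both, the range of the control libraries held that of Bmal1;CKO. With counts of copies added, the mean level of Atp5h per kilobase lay above that of Atp5b. Atp5e, the small epsilon subunit of the central stalk, had 5447, 5757 and 1183 in control and 1782, 1863 and 1531 in Bmal1;CKO (log2 fold change of -0.96, SE 0.60; limma-trend adjusted p = 0.883). Atp5mpl, a small membrane subunit, had 9804, 8970 and 2612 against 3540, 4315 and 2813. In both Atp5e and Atp5mpl, control libraries 1 and 2 lay above all others and control library 3 was the lowest. Of the 3 genes for the same c ring protein, Atp5g3 made up 98.5% to 99.4% per kilobase. Atp5g3 had 52228, 59409 and 33638 normalized counts in control and 45376, 37966 and 30688 in Bmal1;CKO, Atp5g1 had 1288, 1157 and 494 in control and 489, 782 and 538 in Bmal1;CKO, and Atp5g2 had 53 to 175 per library. The counts of Atp5g1 and Atp5g2 were uncertain, since both have copies, and Gm10039, the copy of Atp5g1 shown above, had 80535, 69731 and 33966 normalized counts in control and 64736, 37922 and 35900 in Bmal1;CKO, more than Atp5g3 in every library except Bmal1;CKO library 5.

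**Figure D3:**
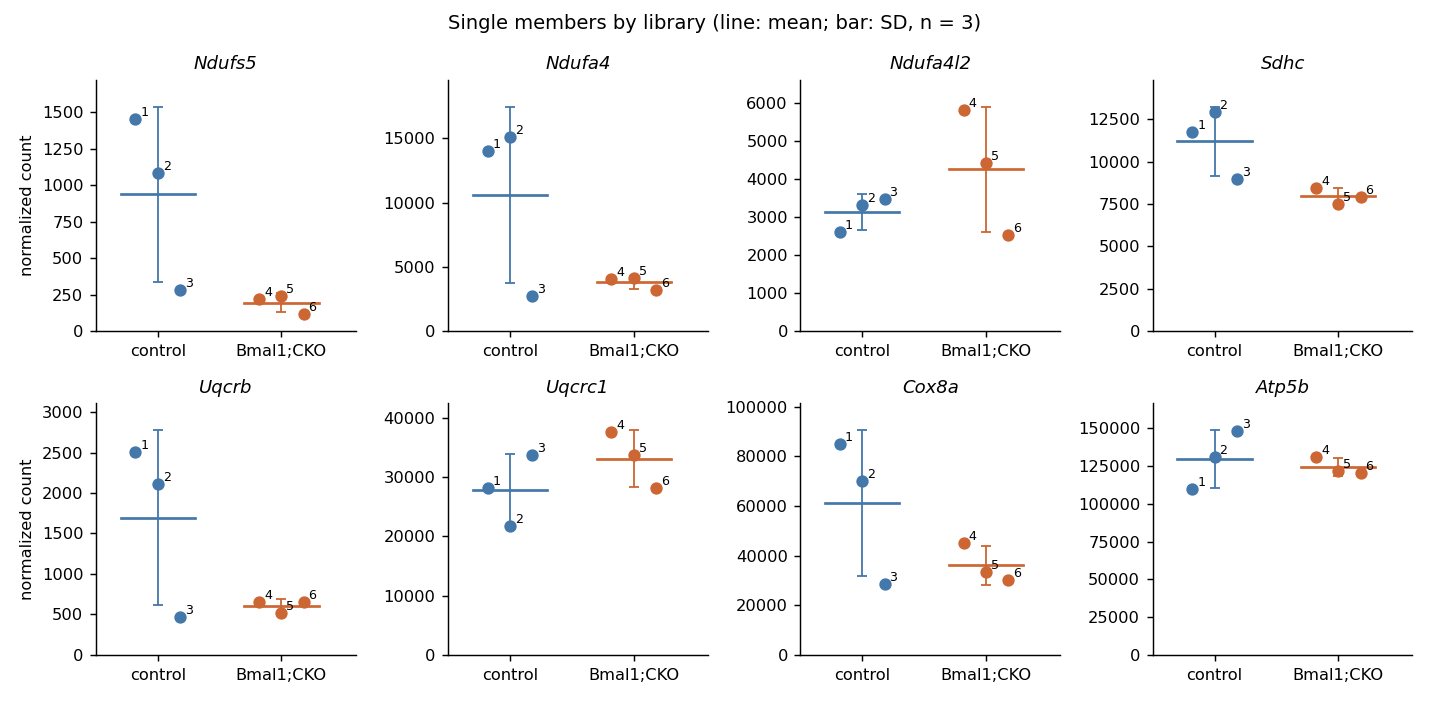
Points give the normalized count of 8 members in each library, numbered as in the table, with lines for group means and error bars for the SD (n = 3). Ndufs5, Ndufa4, Uqcrb and Cox8a have control libraries 1 and 2 far above the rest, Sdhc has no overlap between the groups, and Ndufa4l2, Uqcrc1 and Atp5b do not share the order of the controls.

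Among the members, the order of the libraries moved with the length of the transcript. Across the 82 members, the Spearman coefficient between the log2 fold change and the length of the principal transcript was 0.47, and that between length and the log2 difference of control library 1 minus control library 3 was -0.71. Over the 14645 tested protein-coding genes with a length, the same coefficients were -0.0012 and -0.11. The members share libraries, so these are descriptions. The 24 members under 600 bases had a median fold change of -0.62, the 29 from 600 to 1000 bases -0.33, and the 21 from 1000 to 2000 bases -0.12. The 8 members of 2000 bases or more had -0.20. All tested protein-coding genes in the same classes had medians of -0.43 (219 genes), -0.14 (766), 0.12 (3260) and 0.10 (10400). These medians were below 0 only under 1000 bases. Between the 2 control libraries the log2 difference of the shortest class was 1.89 for members and 1.58 for all protein-coding genes. In all 4 classes the median of the members lay below that of all protein-coding genes. Without control library 3 the medians of the shortest class were -1.12 for members and -0.86 for all protein-coding genes, and without control library 1 they were -0.28 and -0.17. The principal transcripts of the members had a median of 772.5 bases, against 2882 for all tested protein-coding genes. The part of transcript length in the genotype difference was not tested.

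**Figure D4:**
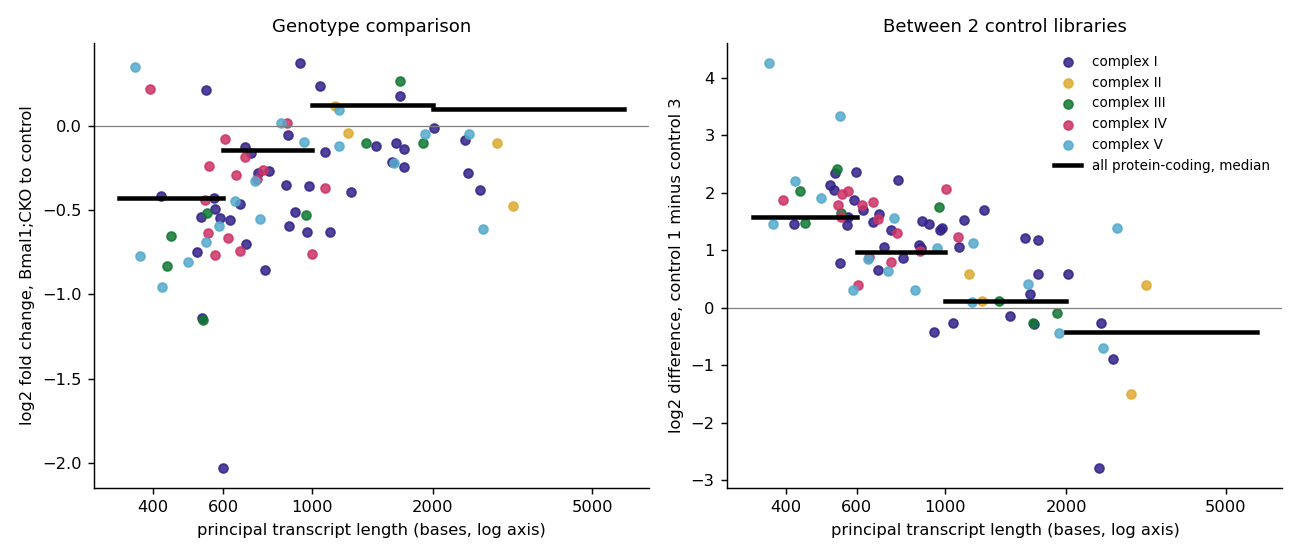
Each point is a tested member, coloured by complex, with the length of its principal transcript on a log axis and, on the left, its log2 fold change between genotypes or, on the right, its log2 difference between control libraries 1 and 3. Black lines give the medians of all tested protein-coding genes in the length classes under 600, 600 to 1000, 1000 to 2000 and over 2000 bases, which run from -0.43 to 0.10 on the left and from 1.58 to -0.41 on the right.

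Adding the copies changed single members more than the whole. With counts of near-identical copies added to each member, 75 of 82 fold changes were below 0, the median was -0.36 and 0 members had an unadjusted p under 0.05 in the limma-trend fit, where 4.91% of all genes did. The sign turned for 4 members. Atp5md, a small membrane subunit of ATP synthase, had 374, 93 and 19 normalized counts in control and 89, 116 and 134 in Bmal1;CKO, with a log2 fold change of 0.35 (SE 1.15), while Gm14539, the copy shown above, had 30022, 31824 and 5377 in control and 9380, 9010 and 6412 in Bmal1;CKO. With its 3 copies added the log2 fold change was -1.07 (SE 0.66). This was the largest move, of 1.42. Cox5b moved from 0.01 to -0.39, Atp5o from 0.02 to -0.26 and Ndufs3 from 0.24 to -0.026. Cox6c, with 2832, 5411 and 2154 normalized counts in control and 2603, 3659 and 2937 in Bmal1;CKO, kept its sign and moved from -0.08 to -0.80. Cox6c2, a copy of it, had 14477, 14257 and 2594 in control and 4563, 3668 and 2971 in Bmal1;CKO. Of the 36 copy loci that were tested, 32 had fold changes below 0, with a median of -0.48, and 0 had an unadjusted p under 0.05.

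**Figure D5:**
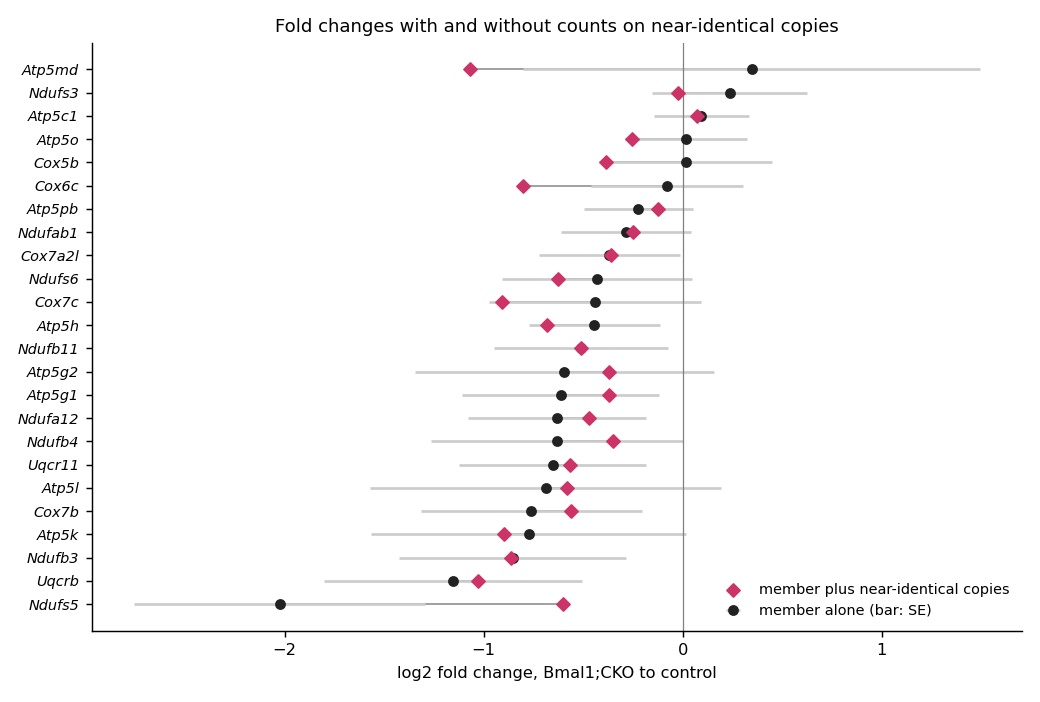
Each row is a member with near-identical copies, with the log2 fold change of the member alone (black, error bar for the SE) and of the member and its copies together (red). Ndufs5 moves from -2.03 to -0.60 and Atp5md from 0.35 to -1.07, and with copies 23 of the 24 members lie below 0.

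Promoters of OXPHOS genes are known for binding sites of NRF1, of the ETS factor GABP and of YY1, while BMAL1 and CLOCK bind the E-box CACGTG. Each was searched by its letters, on both strands, in windows from 250 bases before to 50 bases after the start site, taken from RefSeq on GRCm38.p6. Windows were found for 69 of the 85 member symbols, with 74 windows in all. A gene with more than 1 window was counted once if any of them held the letters. CGCATGCG (NRF1) was present for 9 of the 69 members (13%), against 2.07% of all 27025 genes with a window and 3.91% of the 11601 tested protein-coding genes among them. CCGGAAG (ETS) was present for 17 (24.6%, against 9.93% and 18.1%) and AAGATGGCG (YY1) for 7 (10.1%, against 1.64% and 3.09%). The E-box was present for 6 (8.70%, against 8.09% and 11.2%), namely Atp5g1, Atp5g3, Atp5l, Atp5pb, Ndufa7 and Ndufv1. The 6 members with the E-box had a median log2 fold change of -0.43, and the 61 tested members without it -0.36. The medians with and without the motif were -0.59 (9 members) and -0.31 (58) for NRF1, -0.56 (17) and -0.28 (50) for ETS, and -0.25 (7) and -0.38 (60) for YY1. These splits were not tested. The ETS and YY1 strings share the letters AAG and can overlap there, and the ends of the YY1 and NRF1 strings can overlap by the letters CG. Each was counted alone, and a match is a string of letters, not a bound site.

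The 120 bases before the start site are shown for a member with the E-box whose copy is discussed above (Atp5g1), 1 with NRF1 letters (Atp5g2), 1 with ETS and YY1 letters in this stretch and NRF1 letters elsewhere in its window (Atp5j) and 1 with ETS letters alone (Sdhd). Capitals mark the motifs, and all 4 genes are on the minus strand, with sequences read 5′ to 3′ along the gene.
Atp5g1: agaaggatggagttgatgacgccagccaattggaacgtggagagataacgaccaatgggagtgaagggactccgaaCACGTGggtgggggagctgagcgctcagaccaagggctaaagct
Atp5g2: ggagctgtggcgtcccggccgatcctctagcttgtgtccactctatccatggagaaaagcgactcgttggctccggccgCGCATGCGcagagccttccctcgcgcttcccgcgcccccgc
Atp5j: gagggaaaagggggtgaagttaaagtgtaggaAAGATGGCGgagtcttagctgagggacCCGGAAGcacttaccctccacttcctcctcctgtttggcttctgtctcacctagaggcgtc
Sdhd: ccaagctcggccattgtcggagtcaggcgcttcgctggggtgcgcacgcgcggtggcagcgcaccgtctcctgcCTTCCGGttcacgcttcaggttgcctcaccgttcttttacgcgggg
These lie at chr11:96075632-96075751 for Atp5g1, chr15:102671048-102671167 for Atp5g2, chr16:84834977-84835096 for Atp5j and chr9:50603850-50603969 for Sdhd. In Sdhd the ETS letters stand in reverse complement. Atp5j has 2 windows, and the stretch shown is before the start site that lies within the gene. The other window of Atp5j, with its stretch at chr16:84835626-84835745, held none of these motifs.

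Other genes of respiration were counted beside the subunits. The 13 subunits encoded in mitochondrial DNA, which every respiring cell uses, were listed at 0 reads in all 6 libraries and gave no comparison. Of the assembly factors, 6 of 14 for complex I had fold changes below 0, 3 of 4 for complex II, 4 of 6 for complex III, 13 of 17 tested for complex IV and 2 of 3 for complex V. Sco1, which delivers copper to complex IV, had 2281, 1625 and 1196 normalized counts in control and 876, 1052 and 830 in Bmal1;CKO (log2 fold change of -0.84, SE 0.36; limma-trend, unadjusted p = 0.0475, adjusted p = 0.883). Cyc1, or cytochrome c1, is a catalytic subunit of complex III whose symbol is outside the rule for members. It had 31871, 23108 and 27095 normalized counts in control and 36943, 29942 and 29585 in Bmal1;CKO (log2 fold change of 0.24, SE 0.25). Cycs, the electron carrier cytochrome c, had a log2 fold change of 0.88 (SE 0.69), and Atpif1, the inhibitor of ATP synthase, -0.51 (SE 0.51). The 14 enzymes of the tricarboxylic acid cycle were divided, with 6 below 0 and 8 above, and a median of 0.06. Dld, dihydrolipoamide dehydrogenase, had 6816, 6164 and 5222 in control and 2972, 3959 and 3753 in Bmal1;CKO (log2 fold change of -0.77, SE 0.25; limma-trend, unadjusted p = 0.0152, adjusted p = 0.883). Of 16 regulators of mitochondrial biogenesis, 13 had fold changes above 0, with a median of 0.61 that was 0.19 without control library 1 and 0.83 without control library 3. Pprc1, a coactivator related to PGC-1, had 469, 132 and 746 in control and 1806, 1240 and 1931 in Bmal1;CKO (log2 fold change of 2.18, SE 0.66; limma-trend, unadjusted p = 0.0112, adjusted p = 0.883). No gene of these lists passed FDR < 0.05.

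Markers of cell types moved beside the subunits. All 14 endothelial markers had fold changes below 0, with a median of -0.54, which was -0.21 without control library 1. Their sums were 423367, 230688 and 208150 normalized counts in control and 229167, 125431 and 265992 in Bmal1;CKO, a different order of libraries from that of the OXPHOS sums, since Bmal1;CKO library 6 was the lowest in OXPHOS sums and near the top in endothelial sums. Of the 9 microglial markers, 8 had fold changes above 0 (median 0.40), and of the 12 rod markers 11 had fold changes below 0 (median -0.26). Among Müller glia markers 6 of 7 tested were above 0, among pericyte markers 5 of 8 (median 0.88, but -1.48 without control library 1 and 3.08 without control library 3), and among erythroid markers 1 of 5 tested. Pericyte markers summed to 49143 normalized counts in control library 3, against 2638 and 7668 in the other controls and 4432 to 8972 in Bmal1;CKO. Control library 3 had the lowest OXPHOS sum of the controls. In Bmal1;CKO library 6, whose OXPHOS sum was lower still, pericyte markers summed to 7512. The part of cell composition in the OXPHOS values was not tested.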

How the data were processed

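RNA from sorted VECs in 3 control and 3 Bmal1;CKO samples was amplified (Smart v4), and Nextera XT libraries were sequenced for poly-A RNA. The authors used Trimmomatic for trimming, Bowtie for alignment to mm10 (Ensembl release 87 of GRCm38) and featureCounts for counting. The use of strand and the treatment of reads with several matches are not given in the sources used here. The deposited signal is a normalized count (reads over the library's DESeq2 size factor), and columns of the authors' own comparison in the same table (mean, log2 fold change, its error, test statistic and p-values) were not used. Division by the smallest step gave whole reads for 100% of values (tolerance 0.01), with size factors of 0.813, 1.08 and 1.40 for control and 0.711, 1.16 and 1.21 for Bmal1;CKO. Column names give the genotype with a number that contradicts the library numbers in the labels, so each was used as a replicate of its genotype only.

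A read minimum of 10 in 3 or more libraries left 20459 genes. Genotype alone was fitted with limma-trend (limma 3.58.1, R 4.3.3) to log2(normalized count + 1), with Benjamini-Hochberg adjustment over all genes tested. The alternatives were edgeR 4.0.16 (0 genes at FDR < 0.05), limma-voom and DESeq2 1.42.0 on the recovered reads, log2 CPM, pseudocounts of 0.5 and 10, other read filters and each library left out in turn, and, chosen after seeing the data, copies added. On simulated data with 200 changed genes among 20459, limma-trend recovered 194 with 12 false calls. Recovery of log2 fold changes as small as the median of the members (-0.34) was not tested. Recovery with control libraries as unlike each other as these was also not tested. Their SD of log2 levels had a median of 0.76 over all genes. Copies were found with blastn 2.17.0 on GENCODE M21 transcripts, from which lengths of APPRIS principal transcripts were also taken. Python 3.11.15 was used for tables (pandas 2.3.3) and plots (matplotlib 3.10.9).

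The members and the gene lists were chosen with earlier results of these data known, so no list was given a test. Members were named where they had an unadjusted p under 0.05, where groups did not overlap, where the mean level per kilobase (copies left out) was highest in a complex, where they belong to a paralogue family or where they failed the read filter. Uqcrb, Atp5e, Atp5md, Atp5mpl, Ndufb2, Ndufb3, Ndufs1, Ndufs3, Ndufv1, Sdha, Sdhb, Uqcrc1, Uqcrc2, Atp5a1, Atp5d, Atp5h, Atp5o, Cox5b, Ndufa8, Uqcr11 and Uqcrfs1, and Cyc1, Cycs and Atpif1 of the other lists, were chosen after their values were seen.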

Additional observations from a re-analysis of the deposited data

How the results depend on the processing

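No member passed FDR < 0.05 in any of the 17 alternatives, where the lowest adjusted p of a member was 0.155 (Ndufs5, DESeq2). Over all genes, DESeq2's Wald test called 67 genes, and 34 with a normal prior, and 1 gene was called with genes of at least 1 read and 1 with genes of at least 10 reads in every library. Leaving out each library called 0 to 6 genes, with 6 without control library 1. Members at an unadjusted p under 0.05 numbered 4 with edgeR and TMM scaling (3.8% of all genes), 3 with edgeR and the DESeq2 size factors (3.87%), 0 with limma-voom (4.87%), 5 with DESeq2 (5.92%), 5 with its prior (5.1%) and 0 with copies added (4.91%). Leaving out each library gave 0 to 30 such members, with 30, all lower in Bmal1;CKO, without control library 3, where 11.9% of all genes passed. The median log2 fold change of the members ran from -0.67 to -0.16 over the libraries left out and was negative in all 17 alternatives. The log2 ratio of the sums was also negative in each alternative run on it (-0.50 to -0.16 over the libraries left out, -0.37 as a share of reads, -0.45 per kilobase and -0.38 with copies).

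Of the 47 named genes followed through the alternatives, 32 kept their direction throughout. Named genes outside these 47 include Atp5d, Atp5h, Ndufa8, Uqcr11, Uqcrfs1, Cyc1, Cycs and Atpif1. Atp5md had log2 fold changes of -0.50 and -0.52 with the 2 edgeR fits, -0.52 and -0.18 with the 2 DESeq2 fits and -1.07 with copies. Cox5b had -0.13 with both edgeR fits, -0.13 and -0.10 with the 2 DESeq2 fits and -0.39 with copies. Copies also turned Atp5o (-0.26) and Ndufs3 (-0.026). Leaving out 1 library gave ranges across 0 for Atp5a1 (-0.22 to 0.12), Atp5b (-0.16 to 0.054), Atp5md (-0.74 to 1.39), Atp5o (-0.15 to 0.16), Cox4i2 (-0.59 to 0.030), Cox5b (-0.43 to 0.41), Cox6a2 (-0.68 to 0.086), Cox6b2 (-0.87 to 0.12), Cox6c (-0.37 to 0.30), Cox7a1 (-0.26 to 0.68), Ndufb2 (-1.07 to 0.48), Sdha (-0.47 to 0.28), Sdhb (-0.027 to 0.32) and Sdhd (-0.20 to 0.095). Except for the copies, where the counts added set the value, the cause was not tested. No paired analysis was possible because the columns carry no replicate number that matches the labels. The median SE of a log2 fold change was 0.44 for a member.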

Other observations

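Of the cell type markers, Vwf, an endothelial clotting protein, had a log2 fold change of -0.94 (SE 0.40; limma-trend, unadjusted p = 0.0468), Cnga1 and Rcvrn of rods -1.37 and -0.997 (limma-trend, unadjusted p = 0.0178 and 0.0412), and Sox9 of Müller glia 1.33 (limma-trend, unadjusted p = 0.0238), all at an adjusted p of 0.883. Idh3g, a subunit of isocitrate dehydrogenase, had 8220, 6565 and 6821 normalized counts in control and 8233, 10430 and 8612 in Bmal1;CKO. Its groups thus did not overlap, though control library 1 and Bmal1;CKO library 4 nearly met. The log2 fold change was 0.34 (SE 0.23; limma-trend, unadjusted p = 0.185, adjusted p = 0.883). Of all genes, 11.2% had groups that did not overlap, in either direction.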
